A study of Mus musculus with 2 samples.

Results

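Oligodendrocyte precursor genes were examined in GL261 cells, a mouse glioma cell line from C57BL/6 mice that the labels call an astrocytoma. The set held the 7 genes with the symbols Olig1, Olig2, Nkx2-2, Cspg4, Gpr17, Bcan and Ptprz1, each found once among the 32285 genes of the count tables. Adherent cells grew in DMEM with 10% fetal bovine serum and 1% penicillin-streptomycin and were taken with trypsin near confluency. Neurosphere cells, which grow as floating clusters, came from the same medium and serum to which EGF and FGF (epidermal and fibroblast growth factor, 20 ng/mL of either) and B-27 (1:50) had been added. They were collected after 12 days, then dissociated with trypsin and trituration. Each culture was sequenced as 1 library, so the culture and the library cannot be told apart, no test was run, and every 95% interval covers counting error only.

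Oligodendrocyte precursor cells are dividing glia of the brain that turn into myelin-forming oligodendrocytes, and many gliomas carry part of their gene program. The basic helix-loop-helix (bHLH) factors Olig1 and Olig2 and the homeodomain factor Nkx2-2 set up this lineage. Cspg4, also known as NG2, is a surface proteoglycan of precursors and of pericytes. Ptprz1 is a receptor tyrosine phosphatase that binds pleiotrophin and matrix proteins, and Bcan (brevican) is a secreted proteoglycan of brain matrix. Gpr17 is a receptor that is held for a short time by cells between the precursor and the myelinating stage.

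Kept cells numbered 5051 of 5764 adherent and 4276 of 4951 neurosphere cells. They held 46290996 and 64943938 unique molecular identifiers (UMIs, each a counted transcript molecule), and levels are given as CPM, UMIs scaled to a total of 1000000. Neurosphere cells were deeper, with a median of 13198.5 UMIs against 8260 in adherent cells, so shares of cells and co-expression were taken after each cell was thinned to 5000 UMIs, which left 4464 adherent and 4196 neurosphere cells. The libraries shared 12 cell barcodes. Neither library held a cell type that should lack these transcripts, so the share of cells that free RNA alone gives could not be measured.

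The genes sit at separate places in the genome except for a neighbouring pair. In the GENCODE annotation of GRCm38, Olig2 (chromosome 16, 91225457 to 91228677, plus strand) ends 41094 bases before Olig1 (91269772 to 91271933, plus strand). Nkx2-2 lies on the minus strand of chromosome 2 (147177546 to 147194243), Cspg4 on the plus strand of chromosome 9 (56865033 to 56899870), Bcan on the minus strand of chromosome 3 (87987531 to 88000230) and Ptprz1 on the plus strand of chromosome 6 (22875502 to 23052916). Olig1 has a single exon, whereas Ptprz1 has up to 30. The 250 bases before the RefSeq start of 3 members are shown because these members differed unequally between the cultures, by 1.13-fold for Nkx2-2 and 27.7-fold for Bcan. The RefSeq starts are not those of the GENCODE spans above, so the Olig2 window overlaps the start of its span and the Nkx2-2 window lies inside its span. The windows are from RefSeq for GRCm38.p6, read 5′ to 3′ on the gene's strand, and capitals mark CANNTG, the E-box that bHLH factors can bind, and TATAAA, the TATA box. The window positions are chr16:91225300-91225549 (plus) for Olig2, chr2:147186403-147186652 (minus) for Nkx2-2 and chr3:88000357-88000606 (minus) for Bcan.
Olig2: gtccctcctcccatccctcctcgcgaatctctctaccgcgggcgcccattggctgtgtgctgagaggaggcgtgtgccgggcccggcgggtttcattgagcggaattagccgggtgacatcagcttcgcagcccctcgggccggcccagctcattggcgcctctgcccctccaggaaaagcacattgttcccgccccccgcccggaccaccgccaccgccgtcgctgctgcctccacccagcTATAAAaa
Nkx2-2: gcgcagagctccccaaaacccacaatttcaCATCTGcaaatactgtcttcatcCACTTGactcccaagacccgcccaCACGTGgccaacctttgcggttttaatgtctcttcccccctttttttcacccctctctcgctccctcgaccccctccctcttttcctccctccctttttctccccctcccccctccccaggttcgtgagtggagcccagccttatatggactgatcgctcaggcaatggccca
Bcan: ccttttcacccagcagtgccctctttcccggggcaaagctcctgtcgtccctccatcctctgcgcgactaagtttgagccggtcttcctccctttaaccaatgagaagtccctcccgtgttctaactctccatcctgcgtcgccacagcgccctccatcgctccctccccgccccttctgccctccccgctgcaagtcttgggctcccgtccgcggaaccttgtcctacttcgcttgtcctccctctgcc

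The Nkx2-2 window held 3 E-boxes, and the windows of Olig2, Bcan, Cspg4 and Ptprz1 held 0. On either strand, 66.2% of 32851 windows of this length held at least 1 E-box. The Olig2 window held 1 TATAAA, which 12.4% of all windows held on either strand. A match of letters is a description of the window and not a bound site.

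Of the 7 genes, 6 were more than 2-fold higher in neurosphere cells and 0 were more than 2-fold lower, while Nkx2-2 lay within 2-fold. Across the 14654 genes whose UMIs in the 2 libraries summed to 50 or more, 21.7% were more than 2-fold higher and 11.7% were more than 2-fold lower. The median log2 fold change was 2.74 over the 7 genes and 0.32 over all these genes. With TMM scaling, which sets the level by genes of moderate change, the median of all genes was 0.11, the shares were 16.1% higher and 14.5% lower, and 5 of the 7 genes passed 2-fold. When the removed mitochondrial and ribosomal genes counted toward the total, those shares were 29.5% and 9.38%, and 6 of the 7 genes passed. These scalings shift every log2 fold change by -0.22 and by 0.22, so a value closer to 0 than that has no fixed direction here. In the barcodes that the cell filter left out, the interval of CPM in neurosphere barcodes lay wholly above that in adherent barcodes for 5 of the 7 genes and for 6.74% of the 14654 genes. A gene with few UMIs there could hardly pass, so the share over all genes depends on level and is no scale for the members.

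Olig1 was at 141 CPM in adherent cells (95% interval 138 to 145) and 1292 CPM in neurosphere cells (1284 to 1301), a log2 fold change of 3.20 (3.16 to 3.23). Of thinned cells, 44.6% of adherent (43.1 to 46.1) and 96.2% of neurosphere cells (95.5 to 96.7) held an Olig1 UMI. At full depth these shares were 58.3% and 98.6%. The median neurosphere cell held 6 Olig1 UMIs per 5000 and the median adherent cell held 0, and 76.6% of neurosphere cells lay above the adherent 95th percentile of 3 UMIs. The distributions nevertheless overlapped, since 0.269% of adherent cells reached the neurosphere median.

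Olig2 was at 69.8 CPM (67.4 to 72.2) and 465 CPM (460 to 470), a log2 fold change of 2.74 (2.68 to 2.79). It was found in 26% of thinned adherent cells and in 83.7% of thinned neurosphere cells (38.7% and 93.8% at full depth). The difference between the cultures was larger for Olig1 than for its neighbour, as the ratio of Olig1 to Olig2 UMIs was 2.02 (1.94 to 2.11) in the adherent library but 2.78 (2.74 to 2.82) in the neurosphere one.

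Nkx2-2, the third lineage factor, was at 10.5 CPM (9.63 to 11.5) in adherent cells and 11.9 CPM (11.0 to 12.7) in neurosphere cells. Its log2 fold change of 0.17 (0.0059 to 0.34) lay below the median of all genes, and with TMM scaling it was -0.045. Thinned cells with an Nkx2-2 UMI made up 5.06% of adherent and 6.34% of neurosphere cells (9.07% and 15.8% at full depth). The gene overlaps the antisense transcripts Nkx2-2os and 6430503K07Rik on the other strand. Their log2 fold changes were -0.34 (-0.49 to -0.19) and -1.78 (-2.04 to -1.52), lower in neurosphere cells.

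Cspg4 was at 16.9 CPM (15.7 to 18.1) and 34.6 CPM (33.2 to 36.1), a log2 fold change of 1.04 (0.92 to 1.16) whose interval spans the 2-fold line. It fell below that line with TMM scaling (0.82) and without the cells over the 95th percentile of UMIs (0.98). Shares of thinned cells were 7.86% and 16.3% (13.6% and 36.5% at full depth). Ptprz1 was at 29.3 CPM (27.8 to 30.9) and 195 CPM (191 to 198), a log2 fold change of 2.73 (2.65 to 2.81), with 12.8% and 56.2% of thinned cells positive (20.9% and 81.1% at full depth). Both are surface proteins, and the difference was larger for the phosphatase than for the proteoglycan.

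Bcan was at 11.4 CPM (10.4 to 12.4) in the adherent and 315 CPM (311 to 319) in the neurosphere library. This is 27.7-fold (25.4 to 30.2), a log2 fold change of 4.79 (4.67 to 4.92). Thinned cells with a Bcan UMI made up 5.78% of adherent and 70.5% of neurosphere cells (9.70% and 91.7% at full depth). Bcan was thus rarely detected in one culture and found in most cells of the other.

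Gpr17 was close to undetected in adherent cells, with 1 UMI in all 5051 cells (0.0216 CPM, 0.00055 to 0.12). Neurosphere cells held 904 UMIs (13.9 CPM, 13.0 to 14.9), a ratio of 644 and a log2 ratio of 9.33 (6.85 to 14.64). A Gpr17 UMI was seen in 5.60% of neurosphere cells after thinning (4.92 to 6.34) and in 13.1% at full depth, shares that depend on its level and on depth and do not bound the cells that express it. Gpr17 lies wholly inside Lims2, a gene on the opposite strand. Lims2 went from 0.346 to 33.5 CPM (log2 fold change 6.60, 5.90 to 7.41), and 10.6% of thinned neurosphere cells with a Lims2 UMI also held a Gpr17 UMI, against 4.72% of those without. Whether the counting used strand was not given in the sources used here, so the part of overlapping transcripts in the Gpr17 and Nkx2-2 counts was not tested.

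**Figure D1:**
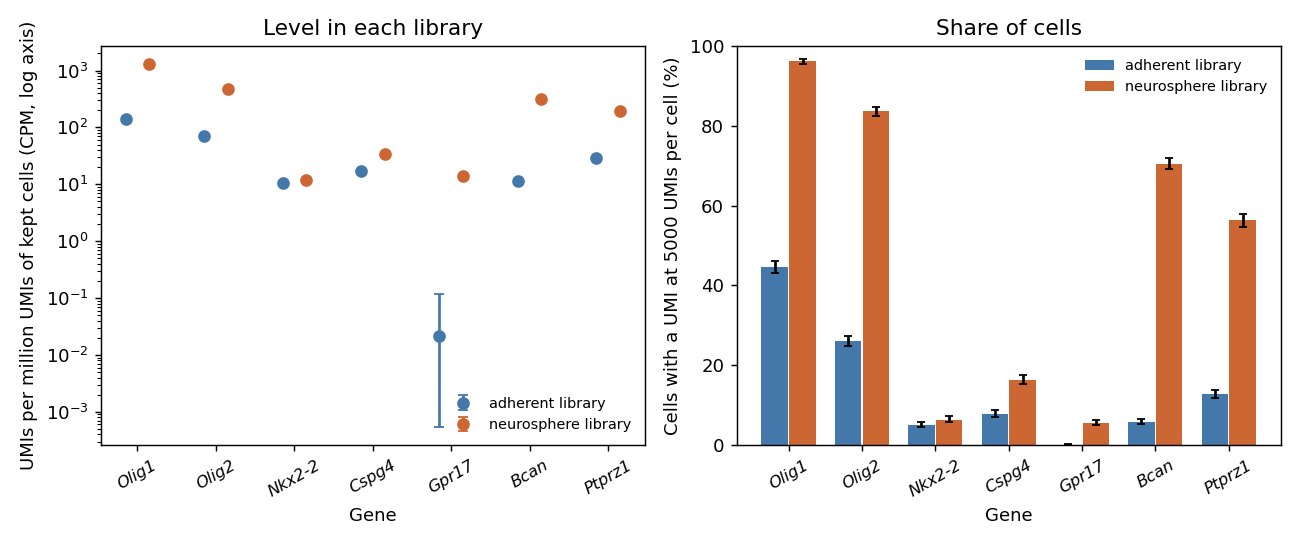
Left, CPM of each gene on a log axis in the adherent and the neurosphere library with exact Poisson 95% intervals. Right, percent of cells thinned to 5000 UMIs that held a UMI, with exact binomial 95% intervals. In the left panel the 2 points coincide almost fully for Nkx2-2 and are farthest apart for Gpr17, whose adherent point rests on 1 UMI.

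The spread between cells was described gene by gene, by a measure that rises with a gene's mean level, so that its order over the genes is not an order of spread. For thinned neurosphere cells, the variance divided by the mean (Fano factor, 1 for pure counting noise) was 3.14 for Olig1, 2.55 for Bcan, 1.81 for Gpr17, 1.59 for Olig2 and 1.51 for Ptprz1. It was 1.13 for Cspg4 and 1.09 for Nkx2-2. In adherent cells it was 1.49 for Olig1 and 1.27 for Olig2, and 1.01 to 1.14 for Bcan, Nkx2-2, Cspg4 and Ptprz1. The plot of cells by number of UMIs shows that the Olig1 counts of neurosphere cells form a single broad hump, with the cells that held 0 at its lower edge.

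**Figure D2:**
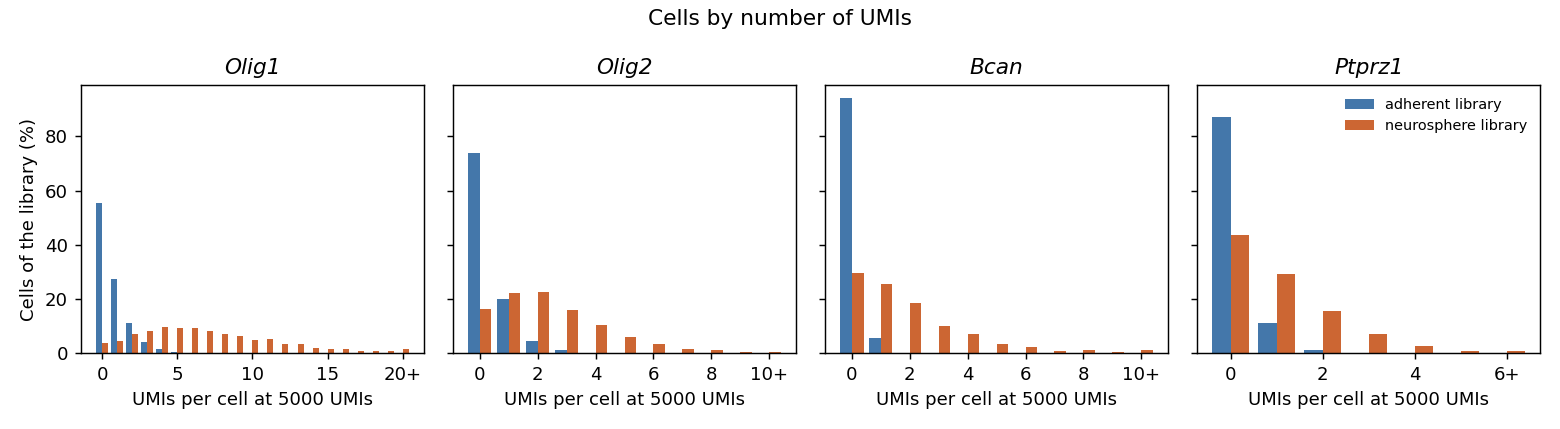
Percent of cells of each library (vertical axis) by number of UMIs of Olig1, Olig2, Bcan or Ptprz1 in a cell thinned to 5000 UMIs (horizontal axis, last bar pools higher counts). Most adherent cells stand at 0 for Olig2, Bcan and Ptprz1, whereas neurosphere cells spread to higher counts, up to 33 for Olig1 and 27 for Bcan.

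Co-expression was then counted per cell. Thinned adherent cells held a median of 1 of the 7 genes, and 32.9% held 0 of them. Thinned neurosphere cells held a median of 3, 0.572% held 0, and 46.1% held 4 or more. At least 3 genes were present in 6.56% of adherent cells, compared with 82.2% of neurosphere cells. A single thinned neurosphere cell held all 7, and 58 of 4276 cells (1.36%) did at full depth.

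Higher levels alone make genes coincide in more cells, so each pair was set against the number of cells expected if the genes were independent. Olig1 and Olig2 were the pair with the highest correlation in both libraries (Pearson's r of log counts over cells, 0.17 in 4464 adherent and 0.27 in 4196 neurosphere cells, which share a library and a fixed depth). Olig2 was found in 32.3% of adherent cells with Olig1 (30.2 to 34.4) and in 20.9% of those without (19.3 to 22.6). In neurosphere cells these shares were 85.0% (83.9 to 86.1) and 49.7% (41.7 to 57.7). Over the 15 pairs without Gpr17, r ran from -0.017 to 0.17 in adherent and from -0.031 to 0.27 in neurosphere cells, and the observed cells exceeded the expected number for 10 and 11 pairs. The ratio of observed to expected cells ran from 0.689 to 1.48 in adherent and from 0.943 to 1.12 in neurosphere cells. Pairs of other genes were not counted, so these numbers of pairs have no background.

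Bcan was detected more often in cells with Olig1 in the neurosphere library, and no such difference was seen in the adherent one. It was found in 71.2% of neurosphere cells with Olig1 (69.7 to 72.5) and 54.7% of those without (46.6 to 62.5). In adherent cells the shares were 5.43% (4.47 to 6.51) and 6.06% (5.16 to 7.08), whose intervals overlap. The cells without Olig1 were 161 neurosphere and 2474 adherent cells, and only 5.78% of thinned adherent cells held Bcan, so these contrasts are unlike. Whether this difference between the cultures exceeds the variation between cultures was not tested. Olig2 and Bcan, both frequent in neurosphere cells, had an r of -0.020 there.

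Ptprz1 was detected more often in cells with Olig1 in both libraries, in 14.7% against 11.3% of adherent cells and 57.0% against 37.3% of neurosphere cells. It also went with Cspg4 in neurosphere cells, where 63.0% of cells with Cspg4 (59.2 to 66.6) and 54.9% of those without (53.3 to 56.6) held Ptprz1. All 235 thinned neurosphere cells with Gpr17 held Olig1, against 95.9% of those without Gpr17. Of the 161 neurosphere cells with no Olig1 UMI, 0 held Gpr17, which allows up to 2.26% of cells with a UMI at this depth (exact binomial upper limit) and does not bound the cells that express the gene.

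When neurosphere cells were ordered by their Olig1 count, Olig2 went from 210 CPM (179 to 244) in cells with 0 Olig1 UMIs to 586 CPM (566 to 607) in the 1103 cells with 10 or more. Ptprz1 went from 111 (88.8 to 136) to 238 CPM (226 to 252), Bcan from 282 (246 to 321) to 436 CPM (419 to 454), and Cspg4 from 21.1 (12.3 to 33.8) to 43.2 CPM (37.8 to 49.0). Nkx2-2 was flat at 12.8 to 14.9 CPM.

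**Figure D3:**
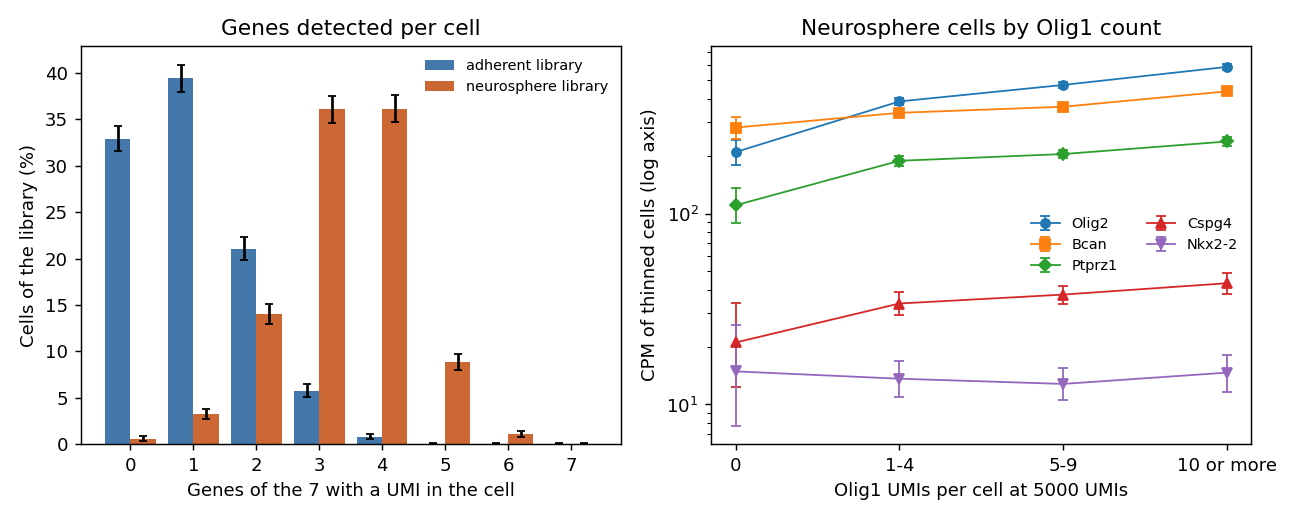
Left, percent of thinned cells of each library by how many of the 7 genes had a UMI, with exact binomial 95% intervals. Right, CPM on a log axis of 5 genes in thinned neurosphere cells grouped by Olig1 UMIs per cell, with exact Poisson 95% intervals. Neurosphere cells peak at 3 and 4 genes, and Nkx2-2 stays level across the Olig1 groups while Olig2, Ptprz1, Bcan and Cspg4 are higher in cells with more Olig1.

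Cells were grouped into 10 neurosphere clusters and 11 adherent clusters with the 7 genes and the listed lineage genes left out of the variable genes. Neurosphere cluster 7 (406 cells, 9.49% of the library, led by Dusp15, Enpp2, Mbp and Gm4876) had the highest levels of 5 of the 7 genes. The share of all genes that were highest in this cluster was not computed, so this number has no background. Gpr17 was at 75.0 CPM there (66.5 to 84.3), against 22.2 CPM in the next cluster and 2.36 CPM in cluster 4, and the cluster held 31.1% of all Gpr17 UMIs. Olig1 (2066 CPM), Ptprz1 (299 CPM), Cspg4 (63.5 CPM) and Nkx2-2 (24.0 CPM) were also highest in it. Its median of 8250.5 UMIs was below that of the library. Genes used for the clustering correlate with those left out, so these levels describe the cluster and are not tested.

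Bcan had another distribution. Its highest level, 796 CPM (772 to 821), was in cluster 0 (591 cells, led by Comp and Ism1), against 436 CPM in the next cluster and 360 CPM in cluster 7. Cluster 0 had a median of 7673 UMIs, against 13198.5 in the library, and 4.84% mitochondrial UMIs, against 3.97%. Olig2 varied least, from 282 to 562 CPM, and was highest in cluster 6 (434 cells, led by the mitotic genes Psrc1 and Ube2c). Cluster 4 (488 cells, led by Wnt7b and Prss56) was lowest for Olig1 (705 CPM), Gpr17 and Bcan (186 CPM). It had a median of 21566.5 UMIs and 3.17% mitochondrial UMIs, and the part of depth and mitochondrial share in these levels was not tested. By point values, every neurosphere cluster lay above the highest adherent cluster for Olig1, Olig2, Bcan, Ptprz1 and Gpr17. For Ptprz1 the lowest neurosphere value was 113 CPM, which lies inside the wide interval of adherent cluster 10 (96.7 CPM).

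Among adherent clusters, cluster 9 (191 cells, led by Egflam and Shisa8) was highest for Olig1 (265 CPM) and Olig2 (171 CPM), against 141 and 69.8 CPM in the library. The next values were close for Olig1 (254 CPM, cluster 7) and lower for Olig2 (93.4 CPM, cluster 6). Cluster 5 was lowest for Olig1 at 64.8 CPM. Cluster 10 had the highest values of Cspg4 (67.0 CPM, 30.6 to 127), Ptprz1 (96.7 CPM, 51.5 to 165) and Bcan (37.2 CPM, 12.1 to 86.8), from 9, 13 and 5 UMIs. It held 49 cells with a median of 2600 UMIs and 12.3% mitochondrial UMIs, against 2.02% in kept adherent cells, and the part of these values in its levels was not tested.

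**Figure D4:**
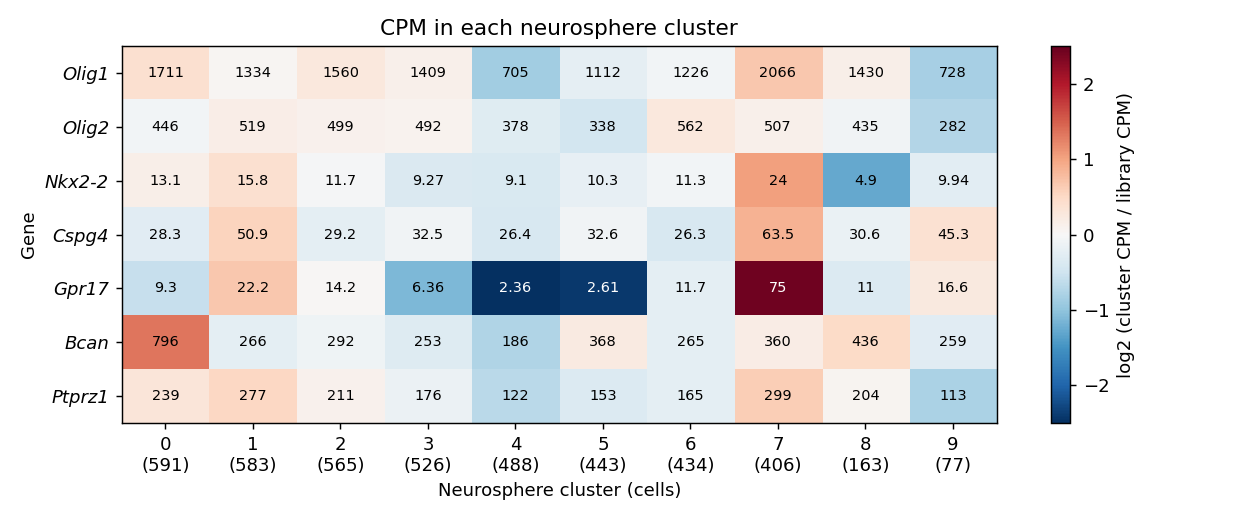
CPM of each gene (rows) in each neurosphere cluster (columns, with its number of cells), printed in the cells and coloured by the log2 ratio to the whole library. Gpr17 stands out in cluster 7 at 75.0 CPM and Bcan in cluster 0 at 796 CPM.

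Thinned neurosphere cells were also split by transcripts of other programs. In cells with a UMI of Krt8, an epithelial keratin found in 65.5% of these cells, the log2 ratios of CPM to cells without showed that Gpr17 (-1.17, -1.49 to -0.85), Nkx2-2 (-0.92, -1.27 to -0.58) and Cspg4 (-0.44, -0.64 to -0.23) were lower and Bcan was higher (0.39, 0.32 to 0.46). For Olig1 the ratio was -0.071 (-0.10 to -0.036), while 96.8% of cells with Krt8 and 94.9% of those without held an Olig1 UMI. The intervals of Olig2 and Ptprz1 included 0.

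In the 2040 cells with a UMI of the proliferation genes Mki67 or Top2a, Gpr17 (-0.93, -1.27 to -0.59), Bcan (-0.66, -0.73 to -0.59), Nkx2-2 (-0.37, -0.72 to -0.020) and Olig1 (-0.26, -0.29 to -0.23) were lower, while Olig2 was higher (0.16, 0.11 to 0.22). Adherent cells shared the Olig1 difference (-0.26, -0.36 to -0.15), and for Olig2 the interval included 0 (0.032, -0.12 to 0.18). Cells with Sox10, a lineage factor that works with Olig2, had more Gpr17 (0.77, 0.42 to 1.12), slightly more Olig1 (0.13, 0.093 to 0.16) and less Bcan (-0.14, -0.20 to -0.071). For Olig2 the ratio was 0.060 (0.0011 to 0.12), while 83.5% of cells with Sox10 and 83.9% of those without held an Olig2 UMI. No direction is given for it. The intervals of these splits leave out the spread between cells, so they are too narrow for genes with a Fano factor above 1. In the 105 neurosphere cells with Pdgfra, the growth factor receptor of precursors, the intervals of all 7 genes included 0.

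**Figure D5:**
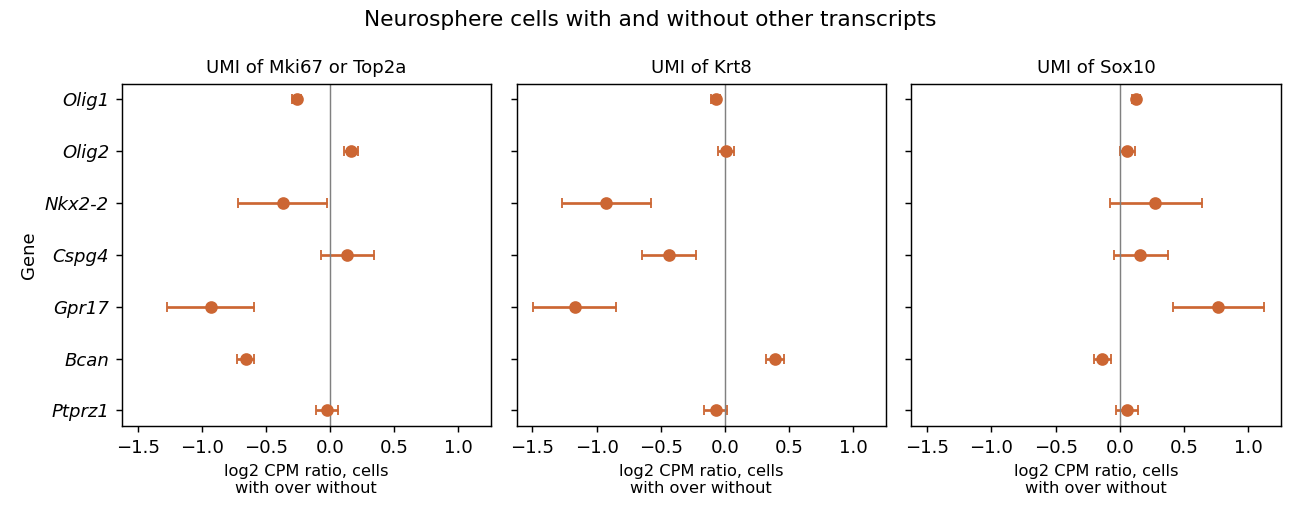
Log2 ratio of CPM (horizontal axis) in thinned neurosphere cells with over without a UMI of the named transcripts for each gene (vertical axis), with exact conditional 95% intervals. Gpr17 lies farthest from 0 in all 3 panels, and Bcan lies on opposite sides of 0 for Krt8 and for Mki67 or Top2a.

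The genes most like each member were ranked by correlation over thinned cells among genes found in at least 5% of cells (8739 in neurosphere and 7964 in adherent cells). In neurosphere cells, the genes most like Gpr17 included Mbp (r = 0.21) and Bcas1 (0.21), and Nkx2-2 was most like Erbb3 (0.11), Enpp2 (0.10) and Mbp (0.084). Cspg4 was most like Ppp2r2b (0.12), Lhfpl3 (0.11) and Lsamp (0.11), and Ptprz1 most like Col11a1 (0.28), Adgrl3 (0.28) and Cadm2 (0.26). Olig1 was most like Cd81 (0.38), Traf4 (0.33) and Eef1a1 (0.29), Olig2 most like Olig1 (0.27), Bpgm (0.19) and Eef1a1 (0.19), and Bcan most like Wnt6 (0.35), Cd81 (0.33) and Col18a1 (0.30).

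In adherent cells, Olig1 was most like Snhg3 (0.19), Olig2 (0.17) and Tomm5 (0.15), and Olig2 most like Olig1, Ppp1r14b (0.13) and Polr3k (0.13). Ptprz1 was most like Nav3 (0.10), Oxr1 (0.098) and Col11a1 (0.097), the last of which also ranked first for it in neurosphere cells. The highest r was 0.069 for Cspg4 (B930036N10Rik, then Asb8 and Olig1), 0.061 for Nkx2-2 (Rdm1, then Rab26os) and 0.051 for Bcan (Lxn, then Mgat4b and Gm30025), and Gpr17 was too rare to be ranked. Correlations this weak in sparse counts are no finding, and the same holds for those of Nkx2-2 and Cspg4 in neurosphere cells.

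Other genes of the precursor program followed the members in part. Of 25 listed genes, 19 had at least 50 UMIs, of which 12 were more than 2-fold higher and 1 more than 2-fold lower in neurosphere cells, with a median log2 fold change of 2.05 (all genes, 21.7% higher, 11.7% lower, median 0.32). The largest values were those of Sox8 (7.20), a relative of Sox10, Lims2 (6.60) and the adhesion gene Pcdh15 (5.58), and the smallest those of Sox5 (-1.52), Matn4 (-0.72) and S100a1 (-0.45). The defining factor Sox10 was at 167 and 194 CPM (0.22, 0.18 to 0.26) and Pdgfra at 6.61 and 4.87 CPM (-0.44, -0.67 to -0.21), so neither was 2-fold apart between the cultures.

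Stages after the precursor were mixed. Of the committed precursor list, 4 of 7 genes with enough UMIs were higher and 1 lower, with Bcas1 (3.66), Tcf7l2 (2.36) and Itpr2 (2.06) at the top and Rras2 (-3.46), Lims1 (0.15) and Fyn (0.26) at the bottom. Their median log2 fold change was 1.48, against 0.32 over all genes, of which 21.7% were higher and 11.7% lower. Of the myelin list, 7 of 12 were higher and 2 lower (3 lower with TMM scaling, and 1 when mitochondrial and ribosomal genes counted toward the total), with a median of 2.36. Opalin (7.60, 5.11 to 12.91) and Mag (6.10, 4.23 to 9.16), with 1 and 2 adherent UMIs, and Mog (5.17) led it, while Aspa (-2.0) and Mbp (-1.04) were lower and Cldn11 was at -0.79.

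The bHLH partners and antagonists of the Olig factors were mixed. Tcf12 (1.82) and Tcf4 (1.54), E proteins that pair with tissue-specific bHLH factors, were higher in neurosphere cells. Id3 (-2.60), Id1 (-1.69) and Id2 (-1.48), which bind E proteins and keep them from DNA, were lower, and Hes5 (5.82), a Notch target, was higher. In all, 4 of 11 genes were more than 2-fold higher and 3 lower (4 lower with TMM scaling), with a median of 0.44, near the 0.32 of all genes, of which 21.7% were higher and 11.7% lower. Of the ventral patterning factors, 4 had enough UMIs, namely Gli3 (1.32), Pax6 (0.096), Ptch1 (0.095) and Smo (-0.13).

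Among the matrix relatives of Bcan, 3 of 8 genes were more than 2-fold higher and 1 lower, with a median of 0.62, against 21.7% and 11.7% of all genes and their median of 0.32. The link proteins Hapln2 (3.04) and Hapln1 (1.97) and the lectican Vcan (1.81) were higher, whereas the lectican Ncan (-1.23) was lower, Hapln4 was at -0.39 and Tnr at 0.22. Of the ligands and partners of Ptprz1, 3 of 8 were higher (2 with TMM scaling) and 2 lower, with a median of 0.41. Contactin Cntn1 (2.73) and the ligands Ptn (1.65, 1.32 to 4.13 CPM) and Mdk (1.20, 0.302 to 0.693 CPM) were higher, and the adhesion molecules L1cam (-4.16) and Nrcam (-2.22) were lower.

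Markers of other cell types were checked because Cspg4 marks pericytes and Bcan and Ptprz1 are shared with astrocytes. Of 12 astrocyte genes, 9 had enough UMIs and 0 were more than 2-fold higher, while 3 were lower, namely Fgfr3 (-3.09), Slc1a3 (-2.20) and Gja1 (-1.34). Of all genes, 21.7% were higher and 11.7% lower, and the median was 0.046 over the 9 genes against 0.32 over all genes. The highest were S100b (0.66), Aldoc (0.59) and Aldh1l1 (0.57), and the summed level was 835 and 637 CPM. Gfap, the usual marker of astrocytes, had 30 and 27 UMIs in all adherent and neurosphere cells. The summed level of 9 pericyte genes was 28.3 and 249 CPM, of which Mcam alone made 21.9 and 247 CPM. Des was lower (-2.63), and Pdgfrb, named after its values were seen, had 32 and 4 UMIs. Of 9 neuronal genes, 4 had enough UMIs, namely Map2 (2.89), Syt1 (1.49), Tubb3 (0.68) and Gap43 (0.31). Immune (2.68 and 2.31 CPM summed over 8 genes) and endothelial genes (1.49 and 3.94 CPM over 6) were near 0, with Cx3cr1 at -0.59 and Pecam1 at 1.28, and Ptprc, the pan-leukocyte marker, had 1 and 0 UMIs.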

How the data were processed

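The authors deposited, for either library, the raw count of UMIs of each gene in each called cell, from the 10x Genomics 3′ protocol. Cell Ranger 7.0.1 and mm10 are named in the submitters' processing notes, and the annotation and intron setting are not given in the sources used here. From these, 13 mitochondrial and 101 ribosomal protein genes were removed, then cells under 1000 UMIs or under 1250 (adherent) or 2250 genes (neurosphere). No doublet caller was run; cells over the 95th percentile of UMIs were left out as an alternative. Counts were summed per library as CPM, with exact Poisson, binomial and conditional 95% intervals. Only the conditional interval of the log2 fold change was tested, on simulated Poisson counts without added spread between cells. A gene at 0 in 1 library was set to 3 counts. Clusters came from Seurat 5.3.0 (R 4.3.3, 2000 variable genes less the listed genes, 17 and 18 PCs, resolution 1.0), and scaling from edgeR 4.0.16 (TMM). Named from each of 12 lists were the 3 highest and 3 lowest genes with at least 50 UMIs and the defining markers, and for each member the 3 most correlated genes; some of these are not reported here. The 7 genes and the lists were chosen with earlier results of these data known. Python 3.11.15 and numpy 2.4.6 were used.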

Additional observations from a re-analysis of the deposited data

Results flagged for a closer look

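Barcodes left out by the cell filter, which enter none of the comparisons of kept cells, held transcripts of the precursor genes, and for 5 of the 7 genes the exact Poisson 95% interval in the neurosphere barcodes lay wholly above that in the adherent barcodes, as it did for 6.74% of the 14654 genes with enough UMIs. That share depends on level, because genes with few UMIs in these barcodes could hardly pass, and it is no scale for the members. The 675 neurosphere barcodes had a median of 87.0% mitochondrial UMIs and 574706 UMIs on the other genes, and the 713 adherent barcodes had 48.8% and 392008 UMIs. In the neurosphere barcodes left out, Bcan was at 853 CPM (779 to 932), above the 315 CPM of kept neurosphere cells and the 23.0 CPM (10.5 to 43.6) of the adherent barcodes left out. Olig1 was at 1275 CPM there, Olig2 at 348 CPM, Ptprz1 at 197 CPM and Gpr17 at 19.1 CPM (9.55 to 34.2). The adherent barcodes left out had 122, 43.4 and 61.2 CPM of Olig1, Olig2 and Ptprz1 and 0 UMIs of Gpr17. Cspg4 was at 59.2 CPM in the neurosphere and 53.6 CPM in the adherent barcodes left out. No cause of these values was tested.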

How the results depend on the processing

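The number of the 7 genes more than 2-fold higher in neurosphere cells was 5 or 6 under all 15 alternatives (scaling, cell filters, thinning, means over cells, a gene length trend, the minimum of UMIs and the fold), and the number more than 2-fold lower was 0 under each. It was 5 with TMM scaling, without the cells over the 95th percentile of UMIs and at 4-fold, and Cspg4 was the gene lost. The log2 fold changes of Olig1, Olig2, Cspg4, Gpr17, Bcan and Ptprz1 kept their sign under 10 alternatives. Their ranges were 2.98 to 3.42, 2.52 to 2.96, 0.82 to 1.26, 8.45 to 9.55, 4.57 to 5.01 and 2.51 to 2.95. That of Nkx2-2 ran from -0.045 (TMM scaling, the reversed sign) to 0.39.

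Depth set the co-expression values. The percent of cells with at least 3 of the genes (6.56 adherent, 82.2 neurosphere) was 18.2 and 96.1 at full depth, 1.95 and 61.9 at 3000 UMIs, 14.7 and 92.4 at 8000 UMIs, and 1.37 and 85.1 when 2 UMIs were asked for at full depth. Olig2 was found more often in cells with Olig1 than in those without by 11.3 percentage points in adherent and 35.3 in neurosphere cells. This was 19.9 and 75.2 points at full depth, 7.33 and 26.3 at 3000 UMIs, 14.4 and 56.7 at 8000 UMIs, and 16.7 and 72.9 when 2 UMIs were asked for. At a resolution of 0.5 and with the listed genes kept, the highest cluster values of Gpr17 (72.5 and 75.2 CPM) and Bcan stayed within the counting interval of the main value. With 1 library per culture, the spread between cultures is unknown, and genes at a few CPM rest on few UMIs. No paired analysis was possible because each culture has 1 library.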
